A study of Mus musculus with 8 samples.

Results

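The genes described here are 10 effector genes of mast cells and basophils: Cpa3, Mcpt8, Prss34, Ms4a2, Fcer1a, Fcer1g, Cd200r3, Hdc, Cyp11a1 and Il4. They were found by their symbols among the 31054 features of 4 single-cell mRNA libraries of mouse bone marrow, and all 10 were present. Unique molecular identifiers (UMIs, each standing for 1 captured transcript) were summed over the cells of each library, and over the cells of each type within it, and are given as CPM, the counts scaled to a fixed total of UMIs of those cells. CPM from these libraries, which read transcripts at their 3' ends, carry no correction for length, so levels are compared between cells and libraries and not between genes.

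The study concerns the role of hematopoietic Gli1 in myelofibrosis, modelled in mice by the JAK2V617F mutation. Marrow cells of 8-week-old Gli1-/- or wild-type donors were taken 48 hours before transplantation and transduced with a retrovirus that carried JAK2V617F or, as the control, JAK2WT. They were given to female B6.SJL recipients of 8 to 10 weeks irradiated with 10.5 Gy, and marrow was collected on day 112. The 4 groups were Gli1KO_JAK2V617F (Gli1-/- donor, JAK2V617F virus), WT_JAK2V617F (wild-type donor, JAK2V617F virus), Gli1KO_JAK2WT (Gli1-/- donor, JAK2WT virus) and WT_JAK2WT (wild-type donor, JAK2WT virus), so that every group, controls included, was irradiated, transplanted and transduced. JAK2V617F is therefore an overexpressed viral copy in part of the cells, and Gli1 is lacking in the grafted cells and not in the recipient's stroma. Each group is 1 library that pools the hashtagged marrow of 3 mice, and the mice were not told apart here because the hashtag libraries were not analysed here. There is therefore no replicate, and no test was made: every interval given covers counting error only, and a difference between libraries cannot be told apart from a difference between mice or preparations. The marrow was depleted of CD11b, GR1, TER119, B220 and CD3 positive cells and sorted into viable lineage-negative GFP+ and GFP- cells. Basophils carry CD11b, so the depletion can set their share.

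Mast cells and basophils are granulocytes of type 2 immunity that arise from multipotent progenitors through progenitors expressing GATA2. Both carry the high-affinity receptor for IgE, built of an alpha chain that binds IgE (Fcer1a), a beta chain that amplifies the signal (Ms4a2) and a signalling gamma chain that other Fc receptors of myeloid cells share (Fcer1g). Their granules hold proteases, among them carboxypeptidase A3 (Cpa3), which is typical of mast cells and also made by basophils and some progenitors, and the basophil proteases mast cell protease 8 (Mcpt8) and mast cell protease 11 (Prss34). Histidine decarboxylase (Hdc) makes histamine, CD200R3 is an activating receptor of the CD200 receptor family on both cell types, CYP11A1 is the side-chain cleavage enzyme that begins steroid synthesis, and interleukin 4 (Il4) is a type 2 cytokine that activated basophils secrete.

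The members lie on 9 chromosomes, with Fcer1a and Fcer1g both on chromosome 1 (mm10, GENCODE M21), and thus do not form a single gene cluster. RefSeq promoters were found for all 10 genes, 2 each for Cyp11a1 and Il4, and were searched for GATAA on both strands, the core of the motif that GATA factors bind. The 250 bases before the start of Cpa3, Prss34, Ms4a2 and Mcpt8 are shown, since the first and the third of these genes had Gata2 among the 3 genes outside the members that were closest to them in pattern across cell types (given at the end), Prss34 and Mcpt8 were the pair most restricted to basophils among the proteases, and they differ in whether GATAA is there. Coordinates are those of GRCm38.p6, the sequences run 5' to 3' on the gene's strand, and capitals mark GATAA or its reverse complement TTATC.
Cpa3 (chr3:20242182-20242431, minus strand): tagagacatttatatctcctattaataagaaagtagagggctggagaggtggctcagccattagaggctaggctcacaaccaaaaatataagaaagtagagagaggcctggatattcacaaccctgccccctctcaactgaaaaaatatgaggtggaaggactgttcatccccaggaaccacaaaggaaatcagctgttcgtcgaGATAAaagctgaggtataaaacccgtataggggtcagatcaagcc
Prss34 (chr17:25298144-25298393, plus strand): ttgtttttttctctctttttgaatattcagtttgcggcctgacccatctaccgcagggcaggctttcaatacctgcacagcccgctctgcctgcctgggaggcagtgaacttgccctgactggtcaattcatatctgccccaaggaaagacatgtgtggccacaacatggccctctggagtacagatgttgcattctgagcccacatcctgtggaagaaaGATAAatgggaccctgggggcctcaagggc
Ms4a2 (chr19:11623720-11623969, minus strand): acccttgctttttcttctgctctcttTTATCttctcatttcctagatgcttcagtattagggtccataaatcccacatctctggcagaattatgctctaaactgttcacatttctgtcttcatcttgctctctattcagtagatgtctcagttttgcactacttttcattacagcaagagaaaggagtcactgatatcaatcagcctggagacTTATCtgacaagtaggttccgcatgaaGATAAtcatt
Mcpt8 (chr14:56085198-56085447, minus strand): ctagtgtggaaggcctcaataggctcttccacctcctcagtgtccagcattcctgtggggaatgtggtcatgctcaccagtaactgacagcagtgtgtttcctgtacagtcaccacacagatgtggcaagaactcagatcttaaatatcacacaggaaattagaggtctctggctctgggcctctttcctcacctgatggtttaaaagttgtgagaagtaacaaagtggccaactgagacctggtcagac
GATAA was present once before Cpa3 and Prss34, 40 and 25 bases from the start, and 3 times before Ms4a2, where the nearest copy was 5 bases from the start and 1 copy was part of the longer AGATAAG. Fcer1a had 1 copy and Cd200r3 had 2. No copy was found in these windows of Mcpt8, Fcer1g, Hdc, Cyp11a1 or Il4. The 2 Cyp11a1 windows end at 57998023 and 58014951, and neither adjoins the GENCODE start of the gene at 58006411. The bases before that start were thus not searched. The Hdc window (126618679-126618928) lies inside the GENCODE gene, which ends at 126619299 on the minus strand. Of the 32851 mouse promoters of the same length, 22.6% held GATAA at least once, 4.28% at least 2 times, and 2.74% held AGATAAG. TTCNNNGAA, the motif that STAT factors bind, was in none of the members' windows and in 7.02% of all promoters.

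The libraries held 6035 kept cells in Gli1KO_JAK2V617F, 3432 in WT_JAK2V617F, 3770 in Gli1KO_JAK2WT and 7196 in WT_JAK2WT, after filters on genes, UMIs and mitochondrial share and removal of 170 to 791 likely doublets per library. The median UMI count per cell lay between 13250 and 17368 in the first 3 libraries and was 4425 in WT_JAK2WT, so shares of cells with a UMI are also given after thinning each cell to 2000 UMIs. Pairs of libraries shared 5 to 14 cell barcodes. Gli1 had 4 UMIs in Gli1KO_JAK2V617F, 2 in WT_JAK2V617F and 0 in each JAK2WT library; with so few UMIs, and 3' reads that may lie outside the deleted part, it does not check the genotype. Y-linked genes had 11888 UMIs in Gli1KO_JAK2V617F and 9079 in Gli1KO_JAK2WT, against 0 in WT_JAK2V617F and 1 in WT_JAK2WT, while Xist had 273 and 867 UMIs in the Gli1KO libraries, against 36779 in WT_JAK2V617F and 78795 in WT_JAK2WT. Donor sex and donor genotype therefore cannot be told apart in these libraries.

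Cells were clustered without the 10 members, and clusters were named from marker lists that hold none of them. Basophil-like cells fell into 2 clusters. Cluster c11 had 12 of 13 basophil markers at 50 CPM or more, and cluster c6a had 8 of 13 basophil and 4 of 11 mast cell markers. In c6a the basophil markers summed to 2188 CPM and the mast cell markers to 1058 CPM. Lmo4, a basophil marker, was at 1349 CPM in c6a of Gli1KO_JAK2V617F and 1150 CPM in c6a of WT_JAK2V617F. In the mast cell-like cells of these libraries it was at 1375 and 1350 CPM, so the basophil name of c6a rests in part on a gene they share. Mast cell-like cells were clusters c6b, with 6 of 11 mast cell and 7 of 13 basophil markers, and c6c, with 3 of 11 mast cell markers (Kit, Gata2 and Slc18a2) and 4 of 13 basophil markers. The basophil markers summed to 1238 CPM in c6c and the mast cell markers to 823 CPM. In c6c the mature mast cell proteases Cma1 and Gzmb were at 8.55 and 24.5 CPM over the 4 libraries, so the mast cell name of c6c, given by the score, rests on few markers and goes against the counts of both lists. The naming rule was chosen after the clusters had been seen. Under several alternatives given at the end, the basophil-like type held no cell of the JAK2WT libraries, so the basophil name of c6a depends on the settings.

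Together the mast cell-like and basophil-like cells were 276 cells or 4.57% of Gli1KO_JAK2V617F, 155 or 4.52% of WT_JAK2V617F, 65 or 1.72% of Gli1KO_JAK2WT and 66 or 0.917% of WT_JAK2WT. Both JAK2V617F libraries were thus above both JAK2WT libraries. These are shares of all kept cells, whose make-up differed between the libraries. In the same order, lymphoid and plasma cells were 1.84%, 1.28%, 10.0% and 21.6%. Cells named as stem and multipotent progenitors were 36.0%, 13.4%, 12.3% and 3.79%. Cluster c11 held 50 cells (0.829%) in Gli1KO_JAK2V617F and 51 cells (1.49%) in WT_JAK2V617F. It held 0 of 3770 cells in Gli1KO_JAK2WT and 0 of 7196 in WT_JAK2WT, which allow shares of up to 0.0796% and 0.0417%. Cluster c6a was present in every library, with 91 cells (1.51%) in Gli1KO_JAK2V617F, 39 (1.14%) in WT_JAK2V617F, 27 (0.716%) in Gli1KO_JAK2WT and 38 (0.528%) in WT_JAK2WT. GFP UMIs, which come from the retroviral construct, were found in 14 c11 cells of Gli1KO_JAK2V617F (28.0%) and 14 of WT_JAK2V617F (27.5%), against 0.978% and 2.62% of all kept cells in the same libraries. They were rarer in the JAK2WT libraries, with 6 of all kept cells (0.159%) in Gli1KO_JAK2WT and 40 (0.556%) in WT_JAK2WT. In c6a they were found in 3, 0, 0 and 1 cells of Gli1KO_JAK2V617F, WT_JAK2V617F, Gli1KO_JAK2WT and WT_JAK2WT. Because clusters c11 and c6a hold the basophil name in different proportions in the 2 viral arms, values are given below for each cluster.

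**Figure D1:**
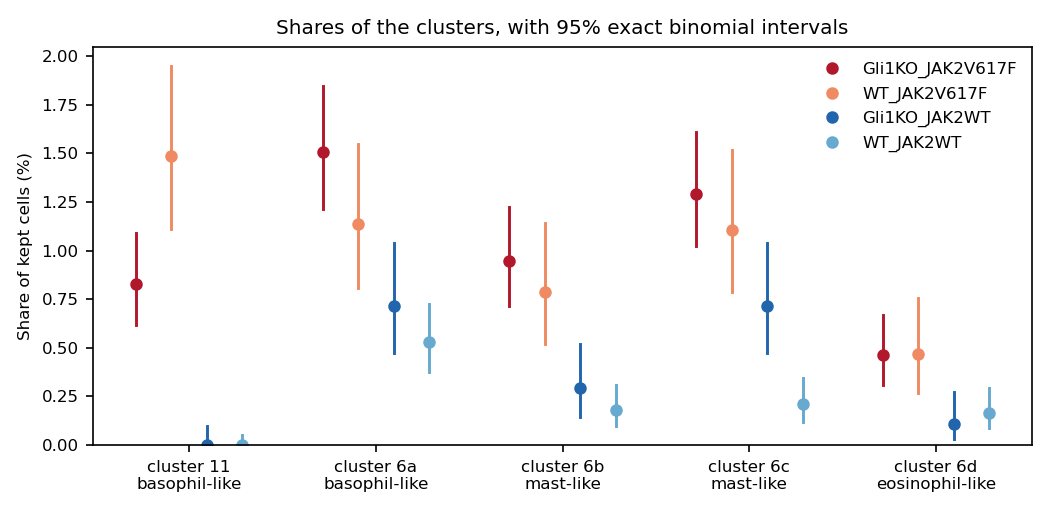
Share of kept cells (percent, vertical axis) in the basophil-like, mast cell-like and eosinophil-like clusters (c11, c6a, c6b, c6c and c6d, written without the c); points are 1 library each and vertical lines are exact 95% binomial intervals, which cover counting error only. Cluster c11 holds 0.829% and 1.49% of cells in the 2 JAK2V617F libraries and no cell in the 2 JAK2WT libraries.

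The members made up 0.127% of all UMIs in Gli1KO_JAK2V617F, 0.0839% in WT_JAK2V617F, 0.0625% in Gli1KO_JAK2WT and 0.0886% in WT_JAK2WT. They differed widely in where those UMIs lay. Over the 4 libraries, basophil-like cells held 94.0% of the 56550 Prss34 UMIs, 78.8% of the 1271 Cd200r3 UMIs, 74.0% of the 7911 Fcer1a UMIs, 73.0% of the 31232 Mcpt8 UMIs, 68.5% of the 2667 Cyp11a1 UMIs and 60.02% of the 1038 Il4 UMIs, of which 409 lay in 1 basophil-like cell. Ms4a2, the beta chain, had 51.3% of its 6101 UMIs in basophil-like and 19.5% in mast cell-like cells. A further 13.2% lay in c5, an unnamed cluster whose highest marker score was for stem and multipotent progenitors. Cpa3 was spread over several types, with 22.0% of 41185 UMIs in basophil-like cells, 11.7% in mast cell-like cells, 23.0% in cells named as stem and multipotent progenitors (HSC/MPP), 18.5% in c5 and 15.6% in granulocyte-monocyte progenitors and promyelocytes (GMP). Hdc had 38.4% of its 12065 UMIs in GMP and 19.7% in basophil-like cells. The gamma chain Fcer1g had 3.95% of 107878 UMIs in basophil-like cells and 1.13% in mast cell-like cells, with 78.1% in types other than those described here.

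**Figure D2:**
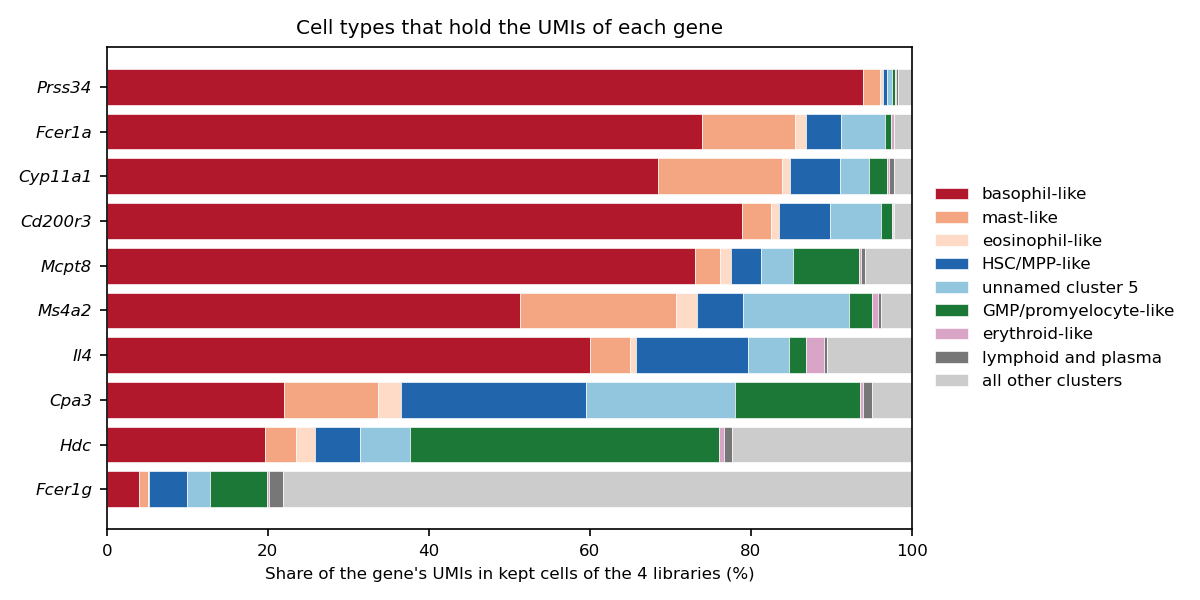
Percent of each gene's UMIs over the 4 libraries (horizontal axis) that lie in each cell type, 1 stacked bar per gene. Prss34 lies almost wholly in basophil-like cells (94.0%), while Cpa3, Hdc and Fcer1g lie mostly elsewhere.

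Prss34, the basophil protease, showed how unevenly single cells can carry a gene. In c6a it was at 16357 CPM in Gli1KO_JAK2V617F, 11419 in WT_JAK2V617F, 12686 in Gli1KO_JAK2WT and 15758 in WT_JAK2WT. These 4 levels lie within 1.5-fold of each other, with no arm above the other. A Prss34 UMI was found in 64 of 91 c6a cells (70.3%) in Gli1KO_JAK2V617F, 29 of 39 (74.4%) in WT_JAK2V617F, 13 of 27 (48.1%) in Gli1KO_JAK2WT and 35 of 38 (92.1%) in WT_JAK2WT, and thinned to equal depth the shares were 64.4%, 66.7%, 37.0% and 85.7% in that order. Many c6a cells of Gli1KO_JAK2WT thus had none, and the 3 cells with most Prss34 held 59.8% of its UMIs there, against 15.5% in Gli1KO_JAK2V617F, 46.1% in WT_JAK2V617F and 27.2% in WT_JAK2WT. Without the highest cell of each library the levels were 15640 CPM in Gli1KO_JAK2V617F, 9477 in WT_JAK2V617F, 9578 in Gli1KO_JAK2WT and 14682 in WT_JAK2WT. In c11 Prss34 was at 16366 CPM in Gli1KO_JAK2V617F and 7709 CPM in WT_JAK2V617F, a log2 ratio of 1.09 (1.03 to 1.14). Without the highest cell the c11 levels were 15870 CPM in Gli1KO_JAK2V617F and 7258 CPM in WT_JAK2V617F, so this difference did not rest on 1 cell.

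Mcpt8, the other basophil protease, was at 6082 CPM in c6a of Gli1KO_JAK2V617F, 3732 in WT_JAK2V617F, 6519 in Gli1KO_JAK2WT and 9034 in WT_JAK2WT. WT_JAK2V617F was the low library and WT_JAK2WT the high one, with a log2 ratio of -1.27 between them (-1.36 to -1.19). Without the highest cell of each library the order of these ends stayed, at 5848 CPM in Gli1KO_JAK2V617F, 3168 in WT_JAK2V617F, 5211 in Gli1KO_JAK2WT and 8635 in WT_JAK2WT. In c11 Mcpt8 was at 5265 CPM in Gli1KO_JAK2V617F and 7406 CPM in WT_JAK2V617F (log2 ratio -0.49, -0.56 to -0.43). The 2 basophil proteases therefore differed in opposite directions between these 2 libraries in c11. They were nonetheless carried by the same cells: 86.0% of c11 cells in Gli1KO_JAK2V617F and 94.1% in WT_JAK2V617F had a UMI of both.

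Cpa3, the carboxypeptidase of mast cell granules, was the most even of the proteases in c6a, at 3001 CPM in Gli1KO_JAK2V617F, 3252 in WT_JAK2V617F, 3127 in Gli1KO_JAK2WT and 3064 in WT_JAK2WT. It was lower in c11, at 1232 CPM in Gli1KO_JAK2V617F and 1098 CPM in WT_JAK2V617F (log2 ratio 0.17, 0.01 to 0.32). In the mast cell-like cells it was at 1556 CPM in Gli1KO_JAK2V617F, 3196 in WT_JAK2V617F, 1171 in Gli1KO_JAK2WT and 1758 in WT_JAK2WT. The high WT_JAK2V617F value came from c6b, where Cpa3 was at 8639 CPM, against 2240 CPM in Gli1KO_JAK2V617F, 1909 in Gli1KO_JAK2WT and 1945 in WT_JAK2WT. Of the 27 c6b cells of WT_JAK2V617F, 3 held 68.4% of those UMIs, and the median cell had 17 Cpa3 UMIs, against 11 in Gli1KO_JAK2V617F, 9 in Gli1KO_JAK2WT and 7 in WT_JAK2WT. Without its highest cell c6b of WT_JAK2V617F was at 5295 CPM, against 2005 CPM in Gli1KO_JAK2V617F handled the same way.

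The 3 chains of the IgE receptor differed little between libraries in c6a. Fcer1a, the IgE-binding alpha chain, was at 1036 CPM in Gli1KO_JAK2V617F, 1310 in WT_JAK2V617F, 801 in Gli1KO_JAK2WT and 1344 in WT_JAK2WT. Ms4a2, the beta chain, was at 929 CPM in Gli1KO_JAK2V617F, 894 in WT_JAK2V617F, 930 in Gli1KO_JAK2WT and 981 in WT_JAK2WT, within 1.5-fold in all pairs. Fcer1g, the gamma chain, was at 951 CPM in Gli1KO_JAK2V617F, 653 in WT_JAK2V617F, 855 in Gli1KO_JAK2WT and 1048 in WT_JAK2WT. None of the 3 differed 2-fold in c6a in any of the 4 comparisons. In c11 Fcer1a was higher than in c6a, at 2831 CPM in Gli1KO_JAK2V617F and 1793 CPM in WT_JAK2V617F (log2 ratio 0.66, 0.54 to 0.77), while Ms4a2 was lower, at 721 and 559 CPM in these 2 libraries. A UMI of all 3 chains was found in 76.0% of c11 cells in Gli1KO_JAK2V617F and 76.5% in WT_JAK2V617F. In c6a it was found in 84.6% of cells in Gli1KO_JAK2V617F, 97.4% in WT_JAK2V617F, 81.5% in Gli1KO_JAK2WT and 86.8% in WT_JAK2WT. The share was lower in c6b, at 59.6%, 63.0%, 45.5% and 15.4% in the same order of libraries, and in c6c, at 41.0%, 36.8%, 29.6% and 40.0%. Thinned to equal depth the share was 55.6% in c11 of Gli1KO_JAK2V617F and 46.9% in c11 of WT_JAK2V617F, and 42.2%, 53.8%, 33.3% and 57.1% in c6a in the same order of libraries, so c11 was then above c6a in Gli1KO_JAK2V617F and below it in WT_JAK2V617F. The thinned shares were 14.3%, 23.1%, 18.2% and 7.69% in c6b, 11.1%, 8.11% and 0% in c6c of the first 3 libraries, with 3 of 10 cells in WT_JAK2WT, and 0% in HSC/MPP of every library.

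In the mast cell-like cells Fcer1a was at 316 CPM in Gli1KO_JAK2V617F, 660 in WT_JAK2V617F, 162 in Gli1KO_JAK2WT and 150 in WT_JAK2WT, with both JAK2V617F libraries above both JAK2WT libraries. Ms4a2 was at 443 CPM in Gli1KO_JAK2V617F, 515 in WT_JAK2V617F, 388 in Gli1KO_JAK2WT and 640 in WT_JAK2WT, and Fcer1g at 485, 437, 480 and 542 CPM in that order; neither separated the arms. The gamma chain separated the mast cell-like clusters instead, with 1039, 1209, 1206 and 696 CPM in c6b and 190, 150, 213 and 454 CPM in c6c, again in that order. Fcer1a in the mast cell-like cells depended on which cells took that name. With a stricter cell filter, or with the members let into the clustering, its log2 ratio of WT_JAK2V617F over WT_JAK2WT was -0.14 and -0.08, against 2.07 here. The cause was not tested.

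CD200R3, the activating receptor, was encoded by few UMIs. Cd200r3 was at 120 CPM in c6a of Gli1KO_JAK2V617F, 131 in WT_JAK2V617F, 85.2 in Gli1KO_JAK2WT and 194 in WT_JAK2WT. The Gli1KO_JAK2WT level was below the WT_JAK2WT level by a log2 ratio of -1.10, but rested on 35 UMIs against 64 and its interval ran from -1.64 to -0.55. Cd200r3 was at 579 CPM in c11 of Gli1KO_JAK2V617F and 453 CPM in WT_JAK2V617F (log2 ratio 0.35, 0.12 to 0.57), above every c6a level. In the mast cell-like cells it was at 10.8 CPM in Gli1KO_JAK2V617F, 46.5 in WT_JAK2V617F, 2.05 in Gli1KO_JAK2WT and 23.1 in WT_JAK2WT.

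Hdc, the histamine-forming enzyme, was at 317 CPM in c6a of Gli1KO_JAK2V617F, 345 in WT_JAK2V617F, 302 in Gli1KO_JAK2WT and 230 in WT_JAK2WT. In c11 it was at 925 CPM in Gli1KO_JAK2V617F and 1797 CPM in WT_JAK2V617F, a log2 ratio of -0.95 (-1.09 to -0.81), just short of 2-fold. Cyp11a1, the steroid side-chain cleavage enzyme, was at 180 CPM in c6a of Gli1KO_JAK2V617F, 445 in WT_JAK2V617F, 197 in Gli1KO_JAK2WT and 179 in WT_JAK2WT. WT_JAK2V617F stood above the other 3 libraries, with a log2 ratio of 1.27 over WT_JAK2WT (0.87 to 1.67), and Gli1KO_JAK2V617F was below it by a log2 ratio of -1.26 (-1.52 to -0.99). Without the highest cell of each library WT_JAK2V617F was still above, at 380 CPM against 170 in Gli1KO_JAK2V617F, 184 in Gli1KO_JAK2WT and 168 in WT_JAK2WT. In c11 Cyp11a1 was at 809 CPM in Gli1KO_JAK2V617F and 1237 CPM in WT_JAK2V617F (log2 ratio -0.61, -0.77 to -0.45), and in the mast cell-like cells at 123 CPM in Gli1KO_JAK2V617F, 349 in WT_JAK2V617F, 51.3 in Gli1KO_JAK2WT and 86.5 in WT_JAK2WT. Gli1KO_JAK2V617F was thus below WT_JAK2V617F for Cyp11a1 in c6a, in c11 and in the mast cell-like cells. Of 9 listed genes of steroid synthesis, 2 or 3 reached 50 CPM in any comparison in c6a, c11 or mast cell-like cells, and none of them differed 2-fold. Pooled over libraries, Tspo, a mitochondrial membrane protein, was at 534 CPM in c11 and 673 in c6a, Fdx1, the ferredoxin that passes electrons to CYP11A1, at 42.1 and 83.3, and Por, a reductase of other P450 enzymes, at 74.3 and 39.4. Star, which delivers cholesterol to CYP11A1, was at 1.53 CPM in c11.

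Il4, the cytokine, was at 589 CPM in c11 of Gli1KO_JAK2V617F and 121 CPM in WT_JAK2V617F, a log2 ratio of 2.19 (1.83 to 2.56). This difference rested on 1 cell: of the 486 Il4 UMIs in Gli1KO_JAK2V617F, 409 lay in a single cell of 34640 UMIs, which also held the most Prss34 (959 UMIs). Without the highest cell of each library, Il4 was at 97.3 CPM in 49 cells of Gli1KO_JAK2V617F and 96.5 CPM in 50 cells of WT_JAK2V617F. The share of c11 cells with an Il4 UMI was 52.0% in Gli1KO_JAK2V617F and 49.0% in WT_JAK2V617F, and after thinning it was 9 of 45 cells in Gli1KO_JAK2V617F and 11 of 49 in WT_JAK2V617F. In c6a Il4 was lower, at 29.7 CPM in Gli1KO_JAK2V617F, 42.0 in WT_JAK2V617F, 19.5 in Gli1KO_JAK2WT and 45.4 in WT_JAK2WT, and in the mast cell-like cells it was at 19.2, 24.9, 16.4 and 23.1 CPM in that order.

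**Figure D3:**
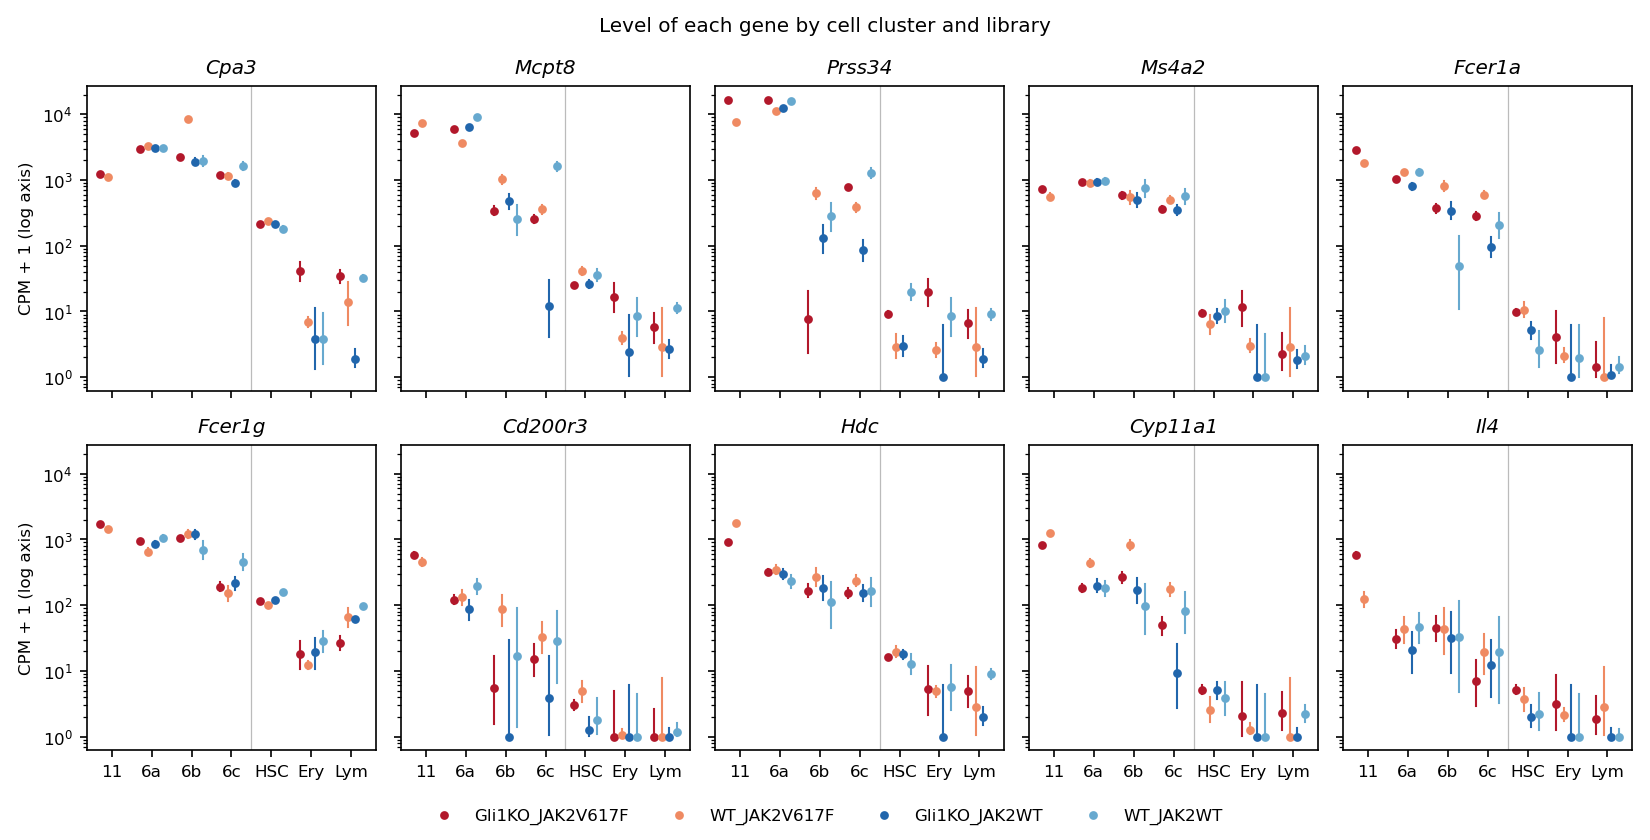
Level of each of the 10 genes, as CPM + 1 on a log axis, in clusters c11, c6a, c6b and c6c (written without the c) and, right of the grey line, in HSC/MPP, erythroid (Ery) and lymphoid and plasma (Lym) cells; points are 1 library each and vertical lines are exact 95% Poisson intervals, which cover counting error only. In c6a, Cpa3 lies at 3001 to 3252 CPM in all 4 libraries.

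**Figure D4:**
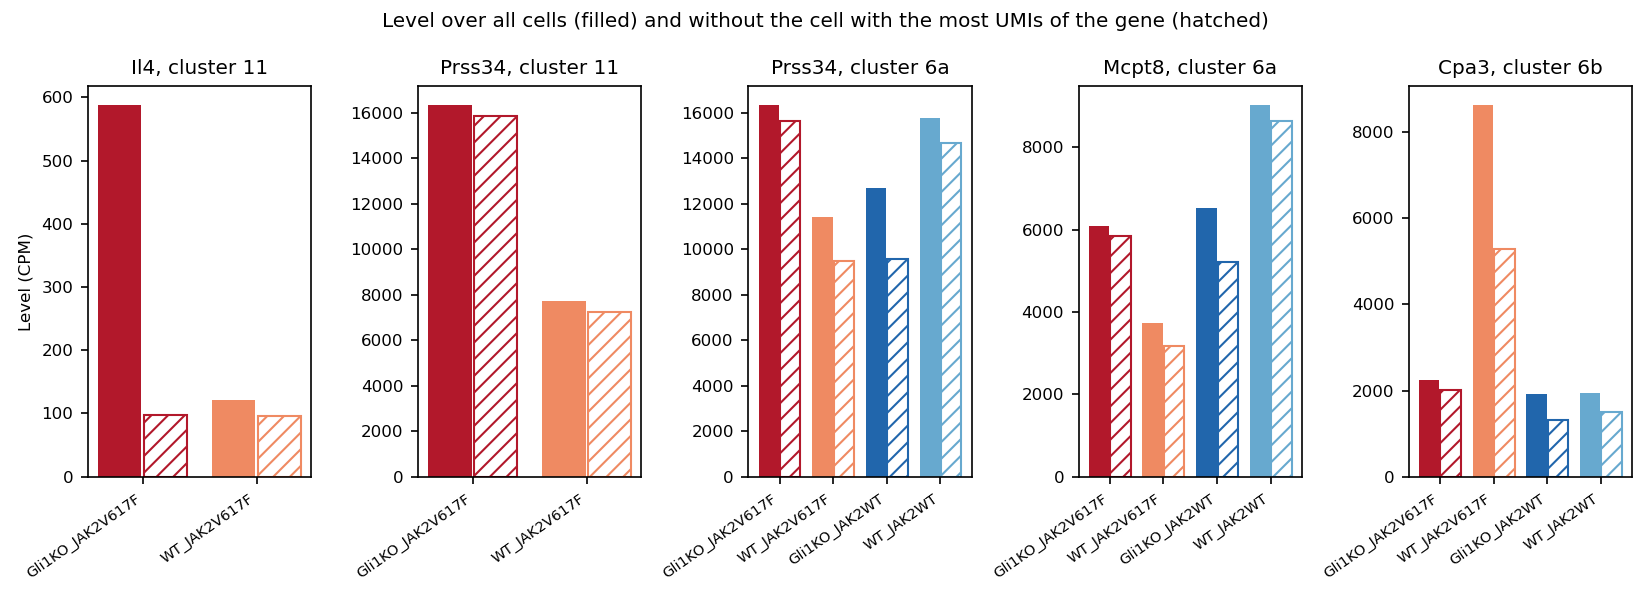
CPM of 4 genes in a named cluster by library, over all of its cells (filled bars) and without the cell that holds most UMIs of the gene (hatched bars). The Il4 bar of c11 in Gli1KO_JAK2V617F is 589 CPM over all cells and 97.3 CPM without 1 cell, close to the 96.5 CPM of WT_JAK2V617F.

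Set side by side by comparison, few members differed 2-fold in c6a, the basophil-like cluster that all 4 libraries share. There 9 of the 10 members reached 50 CPM in each comparison, and Il4 did not. For Gli1KO_JAK2V617F over Gli1KO_JAK2WT none was 2-fold higher or lower, against 0.494% of 3242 genes higher and 0.308% lower. For WT_JAK2V617F over WT_JAK2WT, Cyp11a1 was higher, against 3.37% of 3350 genes, and Mcpt8 was lower, against 2.75%. For Gli1KO_JAK2V617F over WT_JAK2V617F, Cyp11a1 was lower, against 0.581% of 3269 genes, and none was higher, against 0.734%. For Gli1KO_JAK2WT over WT_JAK2WT, Cd200r3 was lower, against 2.04% of 3279 genes, and none was higher, against 2.32%. This Cd200r3 difference was no longer 2-fold without doublet removal (-0.97) or with a pseudocount of 50 CPM (-0.85). The members' median log2 ratios in these 4 comparisons were 0.11, -0.11, -0.12 and -0.30, beside 0.04, 0.07, -0.02 and 0.02 over all genes at 50 CPM. The comparisons share libraries and are not independent of each other.

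In c11, for Gli1KO_JAK2V617F over WT_JAK2V617F, Prss34 and Il4 were 2-fold higher, against 1.61% of 3100 genes, and none was lower, against 1.74%. The Il4 difference was gone without the highest cell of each library, as given above. The members' median was 0.30, beside 0.00 over all genes. With c6a and c11 taken as 1 type, the JAK2V617F libraries include c11 and the JAK2WT libraries do not. For Gli1KO_JAK2V617F over Gli1KO_JAK2WT, Fcer1a (log2 ratio 1.12), Cd200r3 (1.72), Cyp11a1 (1.09) and Il4 (3.16) were 2-fold higher in all basophil-like cells, against 2.8% of 3246 genes, and none was lower, against 0.524%. Fcer1a was at 0.925 without doublet removal and Cyp11a1 at 0.96 with a pseudocount of 50 CPM, so neither was then 2-fold. For WT_JAK2V617F over WT_JAK2WT, Hdc (2.20) and Cyp11a1 (2.19) were higher, against 5.76% of 3315 genes, and none was lower, against 3.11%. For Gli1KO_JAK2V617F over WT_JAK2V617F, Il4 (1.503) was higher, against 0.635% of 3150 genes, and none was lower, against 0.984%. Without the highest cell of each library, Il4 in all basophil-like cells was at 56.0 CPM in Gli1KO_JAK2V617F, 69.7 in WT_JAK2V617F, 12.5 in Gli1KO_JAK2WT and 42.7 in WT_JAK2WT, so that Gli1KO_JAK2V617F was then below WT_JAK2V617F. Of the members higher for JAK2V617F over JAK2WT, only Cyp11a1 in WT marrow was also 2-fold higher in c6a, where Il4 was under 50 CPM.

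In the mast cell-like cells 8 members reached 50 CPM. For Gli1KO_JAK2V617F over Gli1KO_JAK2WT, Mcpt8 (log2 ratio 1.03), Prss34 (2.31) and Cyp11a1 (1.12) were 2-fold higher, against 0.33% of 3338 genes, and none was lower, against 0.27%. For WT_JAK2V617F over WT_JAK2WT, Fcer1a (2.07) and Cyp11a1 (1.90) were higher, against 5.55% of 3533 genes, while Mcpt8 (-1.04) and Prss34 (-1.03) were lower, against 3.48%. For Gli1KO_JAK2V617F over WT_JAK2V617F, Cpa3 (-1.03), Fcer1a (-1.04) and Cyp11a1 (-1.43) were lower, against 0.543% of 3315 genes, and none was higher, against 0.271%. For Gli1KO_JAK2WT over WT_JAK2WT, Mcpt8 (-2.96) and Prss34 (-3.14) were lower, against 3.22% of 3536 genes, and none was higher, against 4.5%. The members' medians in these 4 comparisons were 0.60, 0.40, -0.75 and -0.62, beside 0.04, 0.06, 0.02 and 0.03 over all genes. Of these 12 differences, 8 were no longer 2-fold with members allowed for clustering, 7 with the stricter cell filter and also 7 at resolution 2.0, and 5 with a pseudocount of 50 CPM. Under the stricter filter, JAK2V617F over JAK2WT in Gli1KO marrow was -0.036 for Mcpt8, 0.425 for Prss34 and 0.463 for Cyp11a1. With members allowed, the stricter filter and resolution 2.0 alike, Cyp11a1, Mcpt8 and Prss34 stayed 2-fold for WT_JAK2V617F over WT_JAK2WT. So did Cyp11a1 for Gli1KO_JAK2V617F over WT_JAK2V617F, which was -0.96 and not 2-fold at resolution 0.5. Mcpt8 (-0.989) and Prss34 (-0.972) were not 2-fold with a pseudocount of 50 CPM. In those 3 alternatives the mast cell-like type held 73, 48 and 69 cells of WT_JAK2WT, against 28 here, and the basophil-like type none. They therefore compare other cells and do not show that the differences hold in the same mast cell-like cells. The basophil proteases lay in few of these cells: 3 cells held 87.6% of the Prss34 UMIs in Gli1KO_JAK2V617F, 61.1% in WT_JAK2V617F, 100% in Gli1KO_JAK2WT and 72.0% in WT_JAK2WT. The mast cell-like cells numbered 135 in Gli1KO_JAK2V617F, 65 in WT_JAK2V617F, 38 in Gli1KO_JAK2WT and 28 in WT_JAK2WT, and whether basophil-like cells placed in this type gave these values was not tested.

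**Figure D5:**
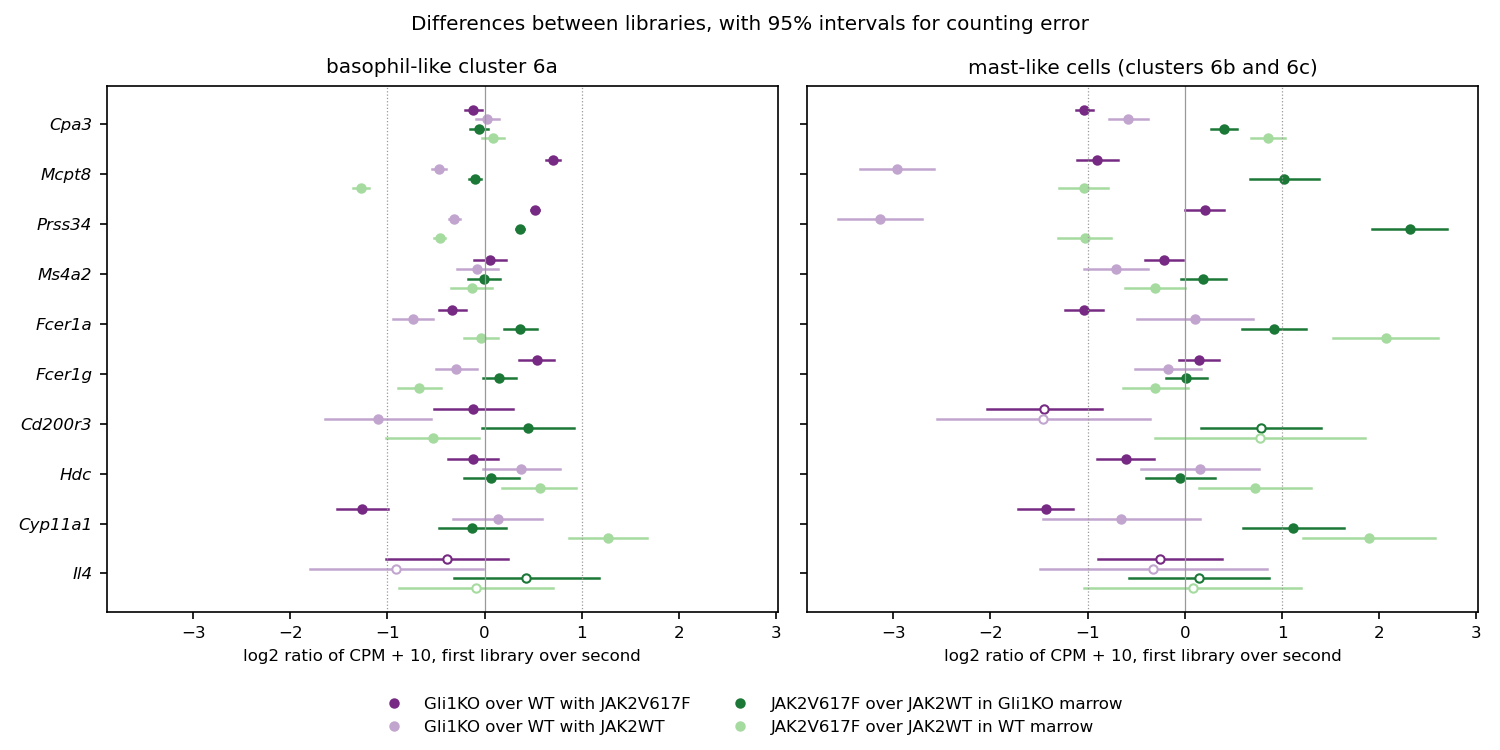
Log2 ratio of CPM (with 10 CPM added) of each gene in the 4 comparisons, for basophil-like cluster c6a and for the mast cell-like cells; error bars are 95% intervals from counting error only, dotted lines mark 2-fold, and open points are genes under 50 CPM in both libraries. In c6a most genes lie inside the 2-fold lines, and in the mast cell-like cells Prss34 runs from -3.14 to 2.31.

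Among multipotent progenitors (HSC/MPP), 2 members were above 50 CPM, Cpa3 and Fcer1g, and neither differed 2-fold in any comparison. The share of all tested genes that were 2-fold higher and lower was 0.0945% and 0.22% for Gli1KO_JAK2V617F over Gli1KO_JAK2WT, and 0.246% and 0.706% for WT_JAK2V617F over WT_JAK2WT. It was 0.223% and 0.128% for Gli1KO_JAK2V617F over WT_JAK2V617F, and 0.343% and 0.468% for Gli1KO_JAK2WT over WT_JAK2WT. Cpa3 was at 216 CPM in Gli1KO_JAK2V617F, 241 in WT_JAK2V617F, 215 in Gli1KO_JAK2WT and 178 in WT_JAK2WT. It was found in 53.7%, 42.7%, 46.8% and 31.9% of the HSC/MPP cells in that order, and in 25.2%, 21.7%, 22.1% and 15.9% after thinning. In lymphoid and plasma cells, taken as a background because they should lack the gene, the thinned shares were 4.72%, 2.44%, 0.541% and 5.13%, below those of HSC/MPP in every library. Whether that background was free RNA, doublets or misplaced cells was not tested. Fcer1g was at 116 CPM in Gli1KO_JAK2V617F, 98.7 in WT_JAK2V617F, 119 in Gli1KO_JAK2WT and 155 in WT_JAK2WT. Mcpt8 was at 24.5 CPM in Gli1KO_JAK2V617F, 40.6 in WT_JAK2V617F, 25.6 in Gli1KO_JAK2WT and 35.1 in WT_JAK2WT, against 4.74, 1.86, 1.66 and 10.3 CPM in the lymphoid and plasma cells. Its thinned shares of HSC/MPP cells were 3.72%, 7.002%, 2.81% and 3.19% in that order, against 2.83%, 0%, 0% and 2.34% of lymphoid and plasma cells. Prss34 was at 8.13 CPM in Gli1KO_JAK2V617F, 1.93 in WT_JAK2V617F, 1.957 in Gli1KO_JAK2WT and 19.0 in WT_JAK2WT, and in the last library 3 cells held 76.6% of its UMIs. Lymphoid and plasma cells had Prss34 at 5.61, 1.86, 0.921 and 8.09 CPM in that order, so Prss34 in HSC/MPP was near that level in WT_JAK2V617F. Cpa3 stood well above it in every library. Hdc lay between 11.7 and 18.5 CPM in HSC/MPP, Ms4a2 between 5.41 and 9.28, and the other members were under 10 CPM in each library.

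GMP carried Hdc at 89.8 CPM in Gli1KO_JAK2V617F, 63.3 in WT_JAK2V617F, 90.9 in Gli1KO_JAK2WT and 97.6 in WT_JAK2WT. Cpa3 in GMP was at 181 CPM in Gli1KO_JAK2V617F, 85.1 in WT_JAK2V617F, 85.0 in Gli1KO_JAK2WT and 98.7 in WT_JAK2WT. The first library stood above the other 3, with a log2 ratio of 1.008 over Gli1KO_JAK2WT, against 0.205% of 2932 genes 2-fold higher, and of 1.005 over WT_JAK2V617F, against 0.369% of 2984 genes; no member was lower, against 0.136% and 0.235% of genes. The intervals of these 2 Cpa3 log2 ratios ran from 0.927 to 1.088 and from 0.913 to 1.098, so both include values under 2-fold. No member differed 2-fold in GMP for WT_JAK2V617F over WT_JAK2WT, where 0.559% of genes were higher and 0.362% lower, or for Gli1KO_JAK2WT over WT_JAK2WT, where 0.239% were higher and 0.308% lower. The unnamed cluster c5 had Cpa3 at 279, 257, 189 and 246 CPM and Ms4a2 at 26.0, 32.7, 20.4 and 38.2 CPM in Gli1KO_JAK2V617F, WT_JAK2V617F, Gli1KO_JAK2WT and WT_JAK2WT. The few eosinophil-like cells, a neighbouring cluster of 28, 16, 4 and 12 cells in that order, had Cpa3 at 1536, 1641, 1267 and 1059 CPM and Hdc at 358, 356, 282 and 422 CPM.

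Erythroid cells had little of any member. Cpa3 was at 39.9 CPM in Gli1KO_JAK2V617F, where 3 cells held 73.7% of its UMIs, and at 5.91 in WT_JAK2V617F, 2.80 in Gli1KO_JAK2WT and 2.86 in WT_JAK2WT. The lymphoid and plasma cells of the same libraries had Cpa3 at 33.2, 12.99, 0.921 and 31.3 CPM in that order, so the erythroid level was above the lymphoid one in the Gli1KO libraries, on 2 UMIs in Gli1KO_JAK2WT, and below it in the WT libraries. The 15.8 CPM of Mcpt8 in erythroid cells of Gli1KO_JAK2V617F lay in 3 cells, and Cd200r3 had 1 UMI in the erythroid cells of all libraries together. No member reached 50 CPM in this type in any library, so no 2-fold count was made. The number of erythroid cells differed widely, with 52 in Gli1KO_JAK2V617F, 1261 in WT_JAK2V617F, 49 in Gli1KO_JAK2WT and 63 in WT_JAK2WT.

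The 2 basophil-like clusters also differed in genes around the members. Pooled over libraries, c11 was above c6a in the chemokines Ccl3 (505 against 97.7 CPM), Ccl4 (606 against 26.3) and Ccl9 (684 against 152), in Csf2rb, the common beta chain of the IL-3 receptor (591 against 151), in Hgf (366 against 89.9), in Osm (342 against 25.0) and in Lat, an adaptor of IgE receptor signalling (315 against 83.7). It was below c6a in Kit, the stem cell factor receptor (3.83 against 59.5), Lmo4 (170 against 1344) and Apoe (59.0 against 951). These genes were among those that formed the clusters and describe them only. Ccl3, Ccl4, Ccl9, Hgf, Osm and Lmo4 were also basophil naming markers, and Kit a mast cell naming marker.

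The listed pathway genes differed little between libraries in c6a. Of 15 genes that signal from the IgE receptor, 6 to 8 reached 50 CPM and none differed 2-fold in any of the 4 comparisons. Of 18 genes of histamine, eicosanoid and granule storage, 7 or 8 reached 50 CPM, and Gzmb, which encodes granzyme B, was the one 2-fold different, at 93.3 CPM in Gli1KO_JAK2V617F against 14.6 in Gli1KO_JAK2WT (log2 ratio 2.07) and 33.2 in WT_JAK2V617F (1.26). Of 15 cytokine and receptor genes, 7 reached 50 CPM and Ccl3 differed: it was at 67.5 CPM in Gli1KO_JAK2V617F against 273 CPM in Gli1KO_JAK2WT (-1.87), and higher in Gli1KO_JAK2WT than in WT_JAK2WT (1.77). Of 15 transcription factors, 7 or 8 reached 50 CPM, and Stat5a (1.10) and Runx1 (-1.09) differed for Gli1KO_JAK2WT over WT_JAK2WT. Stat5a rested on 26 against 8 UMIs and Runx1 on 101 against 177. In that comparison 2.32% of all 3279 genes were 2-fold higher and 2.04% lower.

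In c11, for Gli1KO_JAK2V617F over WT_JAK2V617F, 12 of the 15 receptor signalling genes reached 50 CPM and none differed 2-fold. Of the granule genes Gzmb was lower (42.4 against 198 CPM, log2 ratio -1.99), of the cytokines Il13 was higher (126 against 41.7 CPM, 1.39) and Il6 lower (50.9 against 259 CPM, -2.14), and of the transcription factors Lmo4 was higher (1.15) and Bhlhe40 lower (-1.08). Gzmb was thus higher in Gli1KO_JAK2V617F than in WT_JAK2V617F in c6a and lower in c11. In the mast cell-like cells Cma1, the mast cell chymase, was at 151 CPM in Gli1KO_JAK2V617F, 625 in WT_JAK2V617F, 8.21 in Gli1KO_JAK2WT and 40.4 in WT_JAK2WT, which gave log2 ratios of 3.14 for Gli1KO_JAK2V617F over Gli1KO_JAK2WT, 3.66 for WT_JAK2V617F over WT_JAK2WT and -1.98 for Gli1KO_JAK2V617F over WT_JAK2V617F. Gzmb was higher (1.42) and Prkcd lower (-1.25) for WT_JAK2V617F over WT_JAK2WT, Il3ra was lower (-1.08) for Gli1KO_JAK2V617F over WT_JAK2V617F, and Ctsg (-1.15) and Cd63 (-1.41) were lower for Gli1KO_JAK2WT over WT_JAK2WT; the other measured genes of the 5 lists stayed within 2-fold there. The Prkcd value rested on 17 UMIs in WT_JAK2V617F against 14 in WT_JAK2WT. The shares of all genes that differed 2-fold are those given above for each cluster or type and comparison. How the UMIs of the listed genes spread over single cells was not tested.

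Over 53 pairs of library and cell type, which share libraries and so are not independent points, the genes with the pattern most like each member were named by Pearson r of their log2 CPM. Some members were closer to each other than to any gene outside the list, such as Fcer1a to Cyp11a1 (r = 0.979) and Mcpt8 to Prss34 (0.949), and the genes named next are those outside the 10 members. Csrp3, Rnase12 and Cdh1 recurred: Csrp3 was closest to Ms4a2 (r = 0.976) and Fcer1a (0.962), Rnase12 to Mcpt8 (0.942) and Prss34 (0.936), and Cdh1 to Cd200r3 (0.912). Il6 was closest to Cyp11a1 (0.951) and to Il4 (0.827). Cpa3 stood apart from the other proteases, with Itga2b (0.906), Gata2 (0.903) and Fgf3 (0.891), and Gata2 was among the 3 closest to Ms4a2 too (0.926). Il6 was also a basophil naming marker and Gata2 a mast cell naming marker. Their r values are therefore not independent of how the types were named. Fcer1g was closest to the myeloid genes Myo1f (0.913) and Tyrobp (0.892), of which Tyrobp encodes another signalling adaptor, and Hdc to Rab44 (0.865).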

How the data were processed

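The deposited values of the 4 mRNA libraries were raw counts of UMIs for each cell barcode, made with Cell Ranger 4.0.0 on mm10, per the file headers and the submitters' processing notes, which also name Seurat 4.0.4 without its role; the annotation is not given in the sources used here. The 4 hashtag libraries were not analysed here. Kept cells had at least 500 genes and 1000 UMIs and under 10% mitochondrial UMIs, and the barcodes with the highest simulated-doublet score, 0.8% per 1000 barcodes, were removed. Cells were clustered in Python 3.11.15 with scanpy 1.11.5 (2000 variable genes without the members, 30 components, 15 neighbours, Leiden resolution 1.0), which gave 36 clusters. They were named from 19 marker lists where at least 3 markers reached 50 CPM and the list's mean score was at least 0.5 and 0.2 above the next list. No other list could have more markers among the cluster's 10 most enriched genes, and shallow clusters needed a marker of their own list there. Cluster c5 scored highest for the HSC/MPP list (1.454, next list 0.005) but stayed unnamed by this rule. A mixed cluster was split at resolution 0.3. These naming rules were chosen after the clusters had been seen, and 7 clusters stayed unnamed.

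The counts were summed by library and type, and log2 ratios were taken with 10 CPM added. Intervals (95%) are exact Poisson for CPM, exact binomial for shares, and Poisson by the delta method for ratios, and cover counting error only. With 1 library per group there is no test: a gene is called 2-fold different only if 1 of the 2 libraries has it at 50 CPM or more, in types with at least 20 cells in both, and medians cover members at 10 CPM or more. The thinned shares leave out cells under 2000 UMIs. The edgeR 4.0.16 (TMM) and DESeq2 1.42.0 (size factors) scalings were alternatives only, in R 4.3.3. The ratios, their intervals and the 2-fold calls were tested on simulated Poisson counts. These hold no spread between cells, so they do not cover genes whose UMIs lie in few cells. Named were all 10 members, the 2 highest and lowest genes of 5 pathway lists where 2-fold different, and the 3 genes outside the members most like each of them; the genes that set c11 apart from c6a were chosen after their values were seen. Members and lists were chosen with earlier results of these data known. Promoter sequences are RefSeq's (GRCm38.p6).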

Additional observations from a re-analysis of the deposited data

Results flagged for a closer look

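In the mast cell-like cells the 2 basophil proteases lay on opposite sides of 0 in the 2 donor genotypes, and this difference was not tested. For JAK2V617F over JAK2WT, the log2 ratio of Mcpt8 was 1.025 in Gli1KO marrow and -1.039 in WT marrow, and that of Prss34 was 2.313 in Gli1KO marrow and -1.032 in WT marrow. The 3 cells with most Prss34 held between 61.1% and 100% of its UMIs in each library, and those with most Mcpt8 held 57.0% in Gli1KO_JAK2V617F, 47.9% in WT_JAK2V617F, 90.9% in Gli1KO_JAK2WT and 60.5% in WT_JAK2WT. Under the stricter cell filter and with members allowed for clustering, Mcpt8 in Gli1KO marrow was at -0.036 and -0.062, on the same side of 0 as in WT marrow, and Prss34 in Gli1KO marrow was at 0.425 and 0.416.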

How the results depend on the processing

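No paired analysis was possible because each group is 1 library and no replicate numbers are shared. Of 10 alternatives, DESeq2 size factors, edgeR TMM and pseudocounts of 1 and 50 CPM left all 16 members' medians (by type and comparison) within the counting error. With no minimum CPM the HSC/MPP medians were 0.05 for Gli1KO over WT with JAK2V617F, which turned its sign, and -0.051 with JAK2WT. The cluster edges and the names given to clusters mattered more. For Gli1KO over WT with JAK2V617F the basophil-like median was 0.31 with the stricter cell filter (at least 1000 genes and 2000 UMIs, under 5% mitochondrial), 0.30 at resolution 0.5, 0.31 at resolution 2.0 and 0.26 with members allowed for clustering, and -0.12 with c11 left out, an alternative chosen after seeing the data. With c11 left out the medians for JAK2V617F over JAK2WT were -0.11 in WT and 0.11 in Gli1KO marrow. The mast cell-like median for Gli1KO over WT with JAK2V617F was -0.18 with the stricter filter, -1.61 at resolution 0.5, -0.28 at resolution 2.0 and -0.16 with members allowed, and for JAK2V617F over JAK2WT in Gli1KO marrow 0.17 with members allowed. The joint mast and basophil median for Gli1KO over WT with JAK2V617F was 0.25 at resolution 0.5. In HSC/MPP the median was -0.49 for JAK2V617F over JAK2WT in WT marrow at resolution 0.5, 0.11 and 0.19 in Gli1KO marrow without doublet removal and at resolution 2.0, and -0.35 for Gli1KO over WT with JAK2V617F at resolution 2.0. The cause of these shifts was not tested. With the stricter filter, at resolutions 0.5 and 2.0 and with members allowed, the basophil-like type was only the cluster that corresponds to c11. It held no cell of the JAK2WT libraries and gave no value for them. At resolution 2.0 the mast cell-like type grew to 233 cells in Gli1KO_JAK2V617F, 104 in WT_JAK2V617F, 69 in Gli1KO_JAK2WT and 69 in WT_JAK2WT. Both types together were 282, 155, 69 and 69 cells in that order, against 276, 155, 65 and 66 in the main clustering. The c6a cells of the JAK2WT libraries were thus not named basophil-like there.

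Single log2 ratios that turned their sign were mostly in the mast cell-like cells. For JAK2V617F over JAK2WT, Fcer1a in WT marrow was -0.144 with the stricter filter and -0.081 with members allowed, and Mcpt8 in Gli1KO marrow was -0.036 and -0.062 under the same alternatives. For Gli1KO over WT with JAK2V617F, Mcpt8 was 0.61 with the stricter filter, 0.64 at resolution 2.0 and 0.76 with members allowed; Ms4a2 was 0.047, 0.111 and 0.052 with the stricter filter, at resolution 0.5 and with members allowed; Prss34 was -0.18 without doublet removal and -4.72 at resolution 0.5. In HSC/MPP, Cpa3 was 0.10 for Gli1KO over WT with JAK2V617F under the stricter filter, and -0.012 and -0.104 with JAK2WT without doublet removal and at resolution 2.0. In basophil-like cells with c11 left out, JAK2V617F over JAK2WT in WT marrow was 0.086 for Cpa3, -0.037 for Fcer1a, -0.536 for Cd200r3 and -0.091 for Il4, and -0.13 for Cyp11a1 in Gli1KO marrow, while Gli1KO over WT with JAK2V617F was -0.12 for Cpa3, -0.34 for Fcer1a and -0.39 for Il4. The cluster that corresponds to c11 held 0 cells of both JAK2WT libraries under the 5 alternatives that recluster the cells. Depth limits Cd200r3 and Il4 most, with 1271 and 1038 UMIs over all libraries.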
